A study of Mus musculus with 8 samples.

Results

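The genes described here encode the subunits of the mitochondrial respiratory chain and of the ATP synthase. They were taken from the deposited expression table by symbol: rows beginning with Nduf followed by a, b, c, s or v, the Sdha to Sdhd rows, and rows beginning with Uqcr, with Cox4 to Cox8 or with Atp5, leaving out Cox6a2 and pseudogene symbols that contain "-ps". Of 46477 rows, 91 met this rule, and 75 of them averaged at least 1 FPKM across the 8 libraries (FPKM, a read count scaled to gene length and sequencing depth). These 75 comprised 38 genes of complex I, 4 of complex II, 8 of complex III, 11 of complex IV and 14 of complex V. The pattern also catches 9 assembly factors that are not subunits (the Ndufaf genes, Atp5s and Atp5sl), 5 of them among the 75.

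Complex I takes electrons from NADH and complex II from succinate, and both pass them to ubiquinone. Complex III moves them on to cytochrome c and complex IV, cytochrome c oxidase, to oxygen. Complexes I, III and IV pump protons across the inner mitochondrial membrane, and complex V, the ATP synthase, uses their return to make ATP. Most subunits are encoded in the nucleus and join a small set encoded in mitochondrial DNA, and several complex IV and V subunits exist as tissue-specific isoforms.

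RNA was measured in B16-F10 cells, a mouse melanoma line, with 1 library for each of 8 conditions. The cells had been cultured for 24 h on the extracellular matrix that remained after smooth muscle cells were lysed. The smooth muscle cells had first received siRNA for 72 h, namely siNT (taken here as the non-targeting control), siKLF4, siFN, or both siKLF4 and siFN (siKLF4-siFN), and had then been kept for 72 h in a medium labelled SFM or TCM, the latter read from the series title as B16-F10 tumor conditioned medium. All 8 groups share the melanoma line and the decellularised matrix, and by their labels they differ only in how the matrix was made. The targeting of KLF4 and fibronectin took place in cells whose RNA was not sequenced, so these libraries hold no check of the knockdown. No condition was repeated, so each of medium, siKLF4 and siFN was tested with 4 libraries at each level standing in for replicates, and the p-values speak only of how these 8 libraries vary.

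The libraries held 11600000 to 23000000 reads by an estimate from the values themselves. Melanocyte markers were present throughout, with a summed FPKM of 356 to 567 over 9 genes. Of 10 smooth muscle markers, 1 had a mean FPKM of at least 1 (Des, mean 1.07). Acta2 and Myocd were listed at 0 in every library, and the markers summed to between 1.29 and 2.27. None of 9 fibroblast markers reached a mean FPKM of 1, and their sum lay between 0.151 and 0.309. Of 8 endothelial markers 1 did (Eng, mean 4.74), and of 8 leukocyte markers 1 did (Cd68, mean 2.93). These are deposited values. On the rescaled scale explained next, 5 genes of those 4 lists reach a mean of 1: Eng (49.95), Cd68 (4.63), Smtn (3.66), Des (2.93) and Postn (1.14). All 13 mitochondrially encoded subunit genes, mt-Co1 and mt-Nd1 among them, were listed at 0 in every library, so the mitochondrial share of the complexes is not described here. In bulk RNA, fewer cells of a type and less RNA per cell cannot be told apart.

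The deposited FPKM proved to be scaled to the genomic span of each gene, introns included. With the span, 78.8% to 85.3% of the low values of spliced genes came out as whole reads (within 0.05 read), against 5.08% to 11.4% with the transcript length. Plain ratios of one gene between libraries are not touched by this, but comparisons of levels between genes are. The tests further on add 1 to each FPKM and filter on its mean. Their results therefore change with the scaling, as given in the closing section. Levels of the chain genes are therefore given as rescaled FPKM, the deposited value multiplied by span and divided by the length of 1 annotated transcript.

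On the rescaled scale, 25 of the 75 genes averaged at least 100. Atp5b, the catalytic beta subunit of the ATP synthase, stood highest with a mean of 614 and a range of 558 to 733 over the libraries. Cox4i1, a regulatory subunit of cytochrome c oxidase, followed with a mean of 443, then Cox6c with 416 and Atp5g3, a gene for the membrane ring subunit c, with 349. The ranges of Cox4i1 (379 to 564) and Cox6c (329 to 494) overlapped, so their order is not resolved, and the highest Cox4i1 library exceeded the lowest Atp5b library. By complex, the median was 51.6 for complex I, 53.9 for complex II, 88.1 for complex III, 130 for complex IV and 102 for complex V.

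In complex I, the 3 genes with the highest deposited FPKM were Ndufb11 (rescaled mean 86.6), Ndufb10 (90.6) and Ndufa4 (281). The first pair are accessory subunits of the membrane arm, whereas Ndufa4 is now counted as a subunit of complex IV. The 7 nuclear core subunits, which carry the flavin and iron-sulfur clusters or line the quinone site, were lowest for Ndufs7, at 28.9. In complex II, the iron-sulfur subunit Sdhb stood at 127, above Sdha (the flavoprotein, 55.4) and Sdhd (a membrane anchor, 52.4). In complex III, Uqcr10 averaged 122 and Uqcrfs1, the Rieske iron-sulfur protein, 58.9. Uqcrq averaged 120 with the transcript chosen here and 450.1 with the shortest transcript of the same coding sequence.

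That dependence on the transcript model moved 5 genes by more than 1.5 times. Besides Uqcrq, these were Ndufb2 (9.09 or 87.4), Ndufab1 (8.71 or 21.4), Atp5g1 (3.08 or 24.3) and Atp5g2 (6.88 or 11.4). In complex IV, Cox5b averaged 171 and Cox8a 154, and in complex V, Atp5a1, the alpha subunit, averaged 195.

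**Figure D1:**
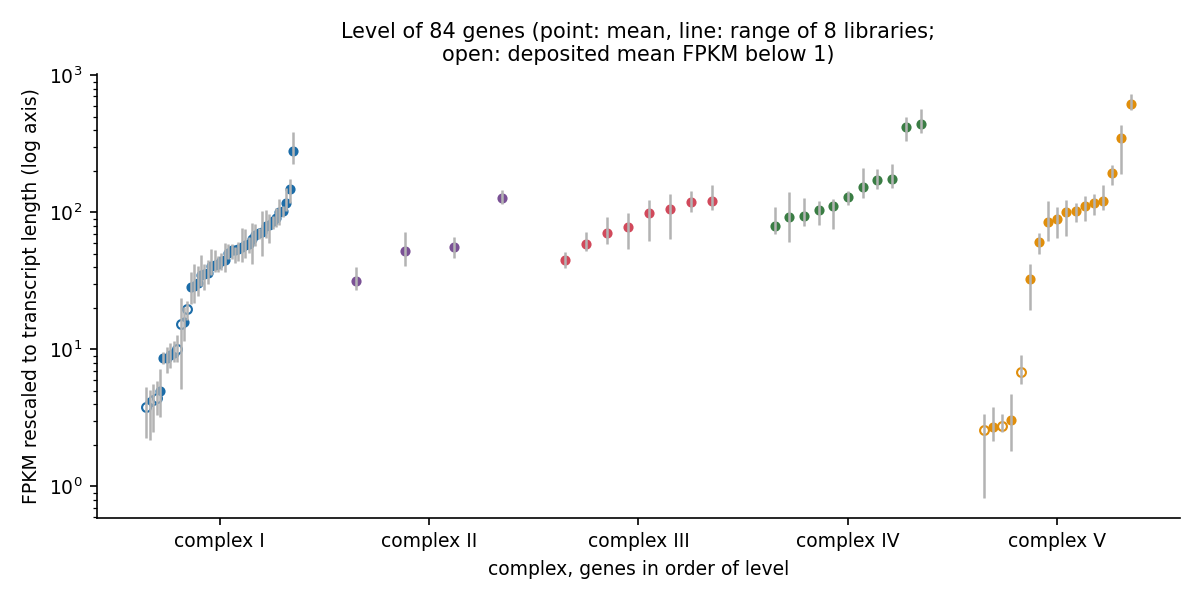
Rescaled FPKM (log axis) of the 84 genes with a rescaled mean of at least 1, by complex and in order of level within it; points are means and lines the range of the 8 libraries, and open points are genes with a deposited mean FPKM below 1. Atp5b stands highest at 614. The low end of complexes I and V holds assembly factors, Ndufb4 (4.42), and Atp5o, Atp5g1 and Atp5g2, whose near-identical copies hold most of the reads. Ndufab1 and Ndufb2 also stand low with the transcript chosen here.

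The isoform pairs had these values. Cox4i1 averaged 443, and its hypoxia-associated paralogue Cox4i2 did not exceed 0.99 read in any library. Cox8a averaged 154 with Cox8b and Cox8c listed at 0 throughout, and Cox7b averaged 91.8 with Cox7b2 listed at 0 throughout. In a table that also lists the mitochondrially encoded genes at 0, such a 0 is given as listed and not read as a level. Cox6b1 averaged 104, whereas the testis isoform Cox6b2 had at most 1.99 reads. Cox7a2 averaged 79.6, whereas the muscle isoform Cox7a1 had at most 3.11 reads. Cox7a2l, a supercomplex factor related to them, averaged 130. Ndufa4 averaged 281 and Ndufa4l2 had at most 3.93 reads. Among the 3 genes for subunit c, the rows gave 349 for Atp5g3, 3.08 for Atp5g1 and 6.88 for Atp5g2. Copies hold most reads of Atp5g1 and Atp5g2, as described below. How far Atp5g3 stands above them therefore depends on how those reads were assigned.

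Of the 16 rows below a mean FPKM of 1, 9 had a rescaled mean of at least 1. Copies hold most reads of 3 of them, Atp5g2, Atp5o and Ndufa12, as described further on. Ndufs4, an accessory subunit of the complex I matrix arm, covers 100464 bases and had a deposited mean of 0.33 but a rescaled mean of 19.6. The assembly factor Ndufaf2 covers 155909 bases and stood at 15.4 rescaled, with 45.3 to 317 reads per library. The others were Ndufa12 (10.1), Atp5g2 (6.88), Ndufb4 (4.42), Ndufaf5 (4.29), Ndufaf6 (3.77), Atp5o (2.78) and Atp5s (2.57). The remaining 7 rows were the tissue isoforms above, which had under 4 reads in any library. Atp5sl, with a mean FPKM of 1.05, was the gene nearest above the limit, and Ndufb4, with 0.59, the nearest below.

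Counts from tests below are limma results on log2(FPKM + 1) with Benjamini-Hochberg adjustment at 0.05 over 6917 genes. None of the 75 genes passed the test for medium, siKLF4 or siFN over all 8 libraries, and neither did any other gene (0% of all genes for each term), so these tests do not show that the genes stayed the same. At an unadjusted p under 0.05, medium counted 2 of the 75 genes and 464 of 6917, siKLF4 counted 0 and 84, and siFN counted 0 and 84. The smallest adjusted p among the 75 was 0.577 in limma, for medium.

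For medium, written as TCM minus SFM, the smallest p upward belonged to Ndufb3 (0.44 ± 0.13 SE), Ndufs6 (0.21 ± 0.11) and Ndufc2 (0.28 ± 0.15), all of complex I. Downward they belonged to Ndufa7 (-0.48 ± 0.14), Atp5g1 (-0.47 ± 0.21) and Cox5a (-0.27 ± 0.12). The median of the 75 genes was -0.02, beside 0.02 over all genes tested. For siKLF4 the corresponding genes were Ndufs6 (0.18), Atp5a1 (0.20) and Sdha (0.15) upward and Atp5g1 (-0.30), Ndufaf4 (-0.22) and Ndufs5 (-0.14) downward. For siFN they were Ndufaf7 (0.15), Ndufa2 (0.17) and Ndufv1 (0.16) upward and Ndufa3 (-0.24), Cox6a1 (-0.25) and Uqcr11 (-0.26) downward. None of these passed the test, and the largest shift of any of the 75 genes for siKLF4 or siFN was 0.30 in size.

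The medium by siFN interaction was called for 1 gene of the chain, Uqcrh (limma), beside 7.17% of all genes. At an unadjusted p under 0.05 it counted 11 of the 75 genes and 2323 of 6917. Uqcrh, the hinge protein of complex III that lies at the cytochrome c docking site, had an FPKM on the SFM matrix of 8.85 with siNT, 7.95 with siKLF4, 4.29 with siFN and 4.82 with siKLF4-siFN. On the TCM matrix it had 5.61 with siNT, 8.17 with siKLF4, 8.37 with siFN and 9.12 with siKLF4-siFN. The 2 SFM libraries with siFN were the lowest of the 8, and the 2 TCM libraries with siFN did not overlap with them. The medium by siFN interaction was 1.08 ± 0.24 (SE) on the log2 scale (limma, adjusted p = 0.0480). It rested on 506 to 1651 reads per library. The pseudogene Gm12854 lies inside the Uqcrh span on the opposite strand and had 5.72 RPM (reads scaled to sequencing depth only), beside 57.9 for Uqcrh.

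Read within each arm, Uqcrh fell by 0.76 ± 0.17 with siFN on the SFM matrix (limma, adjusted p = 0.0488) and stood 0.32 ± 0.17 higher with siFN on the TCM matrix (adjusted p = 0.738, limma). TCM minus SFM was 0.81 ± 0.17 with siFN (limma, adjusted p = 0.0338) and -0.27 ± 0.17 without it (limma, adjusted p = 0.606). The interaction called 7.17% of all genes (265 upward and 231 downward) and 1 of the 75, which is below that background. siFN on the SFM matrix called 6.92% of all genes and again 1 of the 75, and siFN on the TCM matrix called 0% and none of the 75 (0 at an unadjusted p under 0.05, beside 391 of all genes). The count for the interaction rose to 7 when SFM siFN was left out, stayed at 1 when TCM siKLF4 was, and was 0 when any other library was. For siFN on the SFM matrix Uqcrh kept its call only without TCM siNT or TCM siKLF4. Without SFM siFN 6 other genes were called there (Atp5f1, Atp5g3, Atp5k, Ndufaf4, Ndufv1 and Uqcrb) and Uqcrh was not, and without any other library none was.

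**Figure D2:**
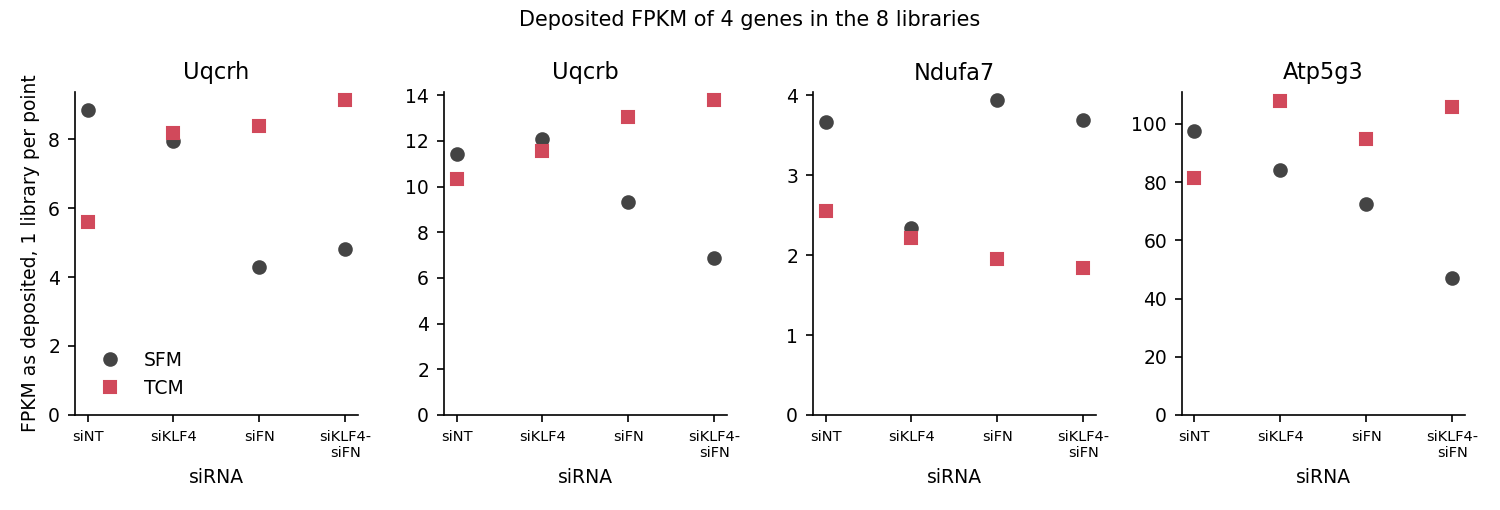
Deposited FPKM (vertical axes from 0) of Uqcrh, Uqcrb, Ndufa7 and Atp5g3 in the 8 libraries, by siRNA, with circles for SFM and squares for TCM. Uqcrh is lowest, at 4.29 and 4.82, in the 2 SFM libraries with siFN, and Atp5g3 is lowest, at 47.0, in SFM siKLF4-siFN.

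With siFN, TCM against SFM called 3 of the 75 genes, 2 higher and 1 lower, or 4% beside 16.9% of all genes. Besides Uqcrh, Uqcrb rose and Ndufa7 fell. Uqcrb, a small matrix-side subunit of complex III, had an FPKM on SFM of 11.5 with siNT, 12.1 with siKLF4, 9.31 with siFN and 6.89 with siKLF4-siFN, and on TCM of 10.3, 11.6, 13.1 and 13.8 in the same order. Both SFM libraries with siFN were below all other libraries. The difference was 0.68 ± 0.17 (limma, adjusted p = 0.0458), and it kept its call in only 1 of the 8 fits that leave out a library, the one without SFM siFN. It was 0.44 without SFM siKLF4-siFN (limma, adjusted p = 0.154), it passed neither with a pseudocount of 0.1 nor without the filter, and it became 0.32 when the trend of each library with GC content was removed (limma, adjusted p = 0.0832).

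Ndufa7, an accessory subunit of complex I, had an FPKM on SFM of 3.67 with siNT, 2.34 with siKLF4, 3.94 with siFN and 3.69 with siKLF4-siFN. On TCM it had 2.56, 2.22, 1.96 and 1.84 in the same order. Every SFM library except siKLF4 was above every TCM library, and SFM siKLF4 stood among the TCM values. With siFN the difference was -0.73 ± 0.14 (limma, adjusted p = 0.0310). Without any 1 of TCM siFN, TCM siKLF4-siFN or SFM siKLF4-siFN none of the 75 genes was called in this contrast, and without SFM siFN 11 were. Without siFN, TCM against SFM called 0% of all genes and none of the 75, with 2 of the 75 and 627 of all genes at an unadjusted p under 0.05 (limma). The smallest p there belonged to Ndufs6 (0.29), Ndufb3 (0.29) and Atp5b (0.21) upward and to Cox7b (-0.59), Ndufa3 (-0.37) and Ndufa4 (-0.40) downward. For siFN on the TCM matrix it belonged, besides Uqcrh, to Uqcrb (0.27) and Cox6c (0.21) upward and to Ndufa8 (-0.23), Uqcrq (-0.24) and Ndufa7 (-0.22) downward.

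The coding sequences of the 3 genes differ in base composition, and library values are set beside base composition further on. Its part in the 3 calls was not tested. The first 90 coding bases of each are shown with G and C in capitals, next to the 2 genes of the 75 with the highest G and C content. Gene positions are on GRCm38 (the assembly also called mm10): Uqcrb at chr13:66900617-66905378, minus strand, Uqcrh at chr4:116066965-116075071, minus strand, and Ndufa7 at chr17:33824572-33838317, plus strand. Cox6a1 lies at chr5:115345642-115348981 and Cox8a at chr19:7215153-7217616, both on the minus strand.
Uqcrb: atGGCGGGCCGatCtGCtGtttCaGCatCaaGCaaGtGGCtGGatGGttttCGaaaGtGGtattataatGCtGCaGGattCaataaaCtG
Uqcrh: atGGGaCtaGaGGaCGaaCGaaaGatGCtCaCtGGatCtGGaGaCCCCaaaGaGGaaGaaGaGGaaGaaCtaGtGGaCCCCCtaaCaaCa
Ndufa7: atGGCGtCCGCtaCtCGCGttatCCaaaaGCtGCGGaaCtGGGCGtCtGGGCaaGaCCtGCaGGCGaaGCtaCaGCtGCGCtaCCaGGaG
Cox6a1: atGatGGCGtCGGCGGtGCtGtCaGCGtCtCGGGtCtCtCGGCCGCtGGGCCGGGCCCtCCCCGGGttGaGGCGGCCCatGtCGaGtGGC
Cox8a: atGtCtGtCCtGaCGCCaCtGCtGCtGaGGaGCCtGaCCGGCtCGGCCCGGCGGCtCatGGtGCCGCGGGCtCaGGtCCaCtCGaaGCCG
Over the whole coding sequence, G or C made up 42.9% of Uqcrb, 50.2% of Uqcrh, 59.3% of Ndufa7, 64.9% of Cox6a1 and 65.2% of Cox8a. Uqcrb was the lowest of the 75.

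No single gene passed the test for a medium by siKLF4 interaction, in which the median standard error of the 75 genes was 0.30. In it, 65 of 75 were above 0, with a median of 0.19, beside 56.4% of all genes above 0 and a median of 0.04. With 1 library left out the median ranged from 0.09 without SFM siNT to 0.32 without SFM siFN, and it was 0.11 without SFM siKLF4. The pairs of TCM and SFM libraries given further on have medians of -0.24 with siNT and 0.19 with siKLF4, but 0.01 with siFN and -0.07 with siKLF4-siFN. All 8 genes of complex III and all 4 of complex II were above 0, as were 31 of 38 in complex I, 10 of 11 in complex IV and 12 of 14 in complex V. No gene was called (limma, 0% of all genes; 1 of the 75 and 78 of all genes at an unadjusted p under 0.05). The smallest p upward belonged to Uqcr10 (0.63 ± 0.25), Sdhc (0.39) and Atp5l (0.51), and Ndufv1 (-0.32) and Cox5b (-0.10) were among the smallest downward. The siKLF4 by siFN interaction called none of the 75 and 0% of all genes (limma; 0 and 40 at an unadjusted p under 0.05), with Atp5g1 (0.62), Ndufaf3 (0.40) and Ndufs6 (0.24) leading upward and Atp5k (-0.52), Ndufaf4 (-0.33) and Cox7c (-0.35) downward.

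By its mean in each library, the chain stood highest in SFM siNT and lowest in TCM siNT. The mean of gene-centred log2 values over the 75 genes on the SFM matrix was 0.16 with siNT, -0.07 with siKLF4, -0.06 with siFN and 0.00 with siKLF4-siFN. On the TCM matrix it was -0.10 with siNT, 0.10 with siKLF4, -0.04 with siFN and 0.00 with siKLF4-siFN. Over all genes tested the same mean lay between -0.03 and 0.05. In SFM siNT 66 of the 75 genes were above their own mean and in TCM siKLF4 64 were, whereas in TCM siNT 16 were. Of all 6917 genes tested, 3666 were above theirs in SFM siNT, 4290 in TCM siKLF4 and 3539 in TCM siNT. The 5 complexes shared these signs: in SFM siNT the mean was 0.13 for complex I, 0.20 for II, 0.17 for III, 0.26 for IV and 0.18 for V, and in TCM siNT it lay between -0.14 for complex II and -0.07 for complex I. SFM siNT was the highest of the 8 libraries for 27 of the 75 genes (36%, beside 13.6% of all genes). TCM siNT was the lowest for 8 of them (10.7%, beside 5.33%), and SFM siKLF4-siFN for 18 (24%, beside 27.1%).

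**Figure D3:**
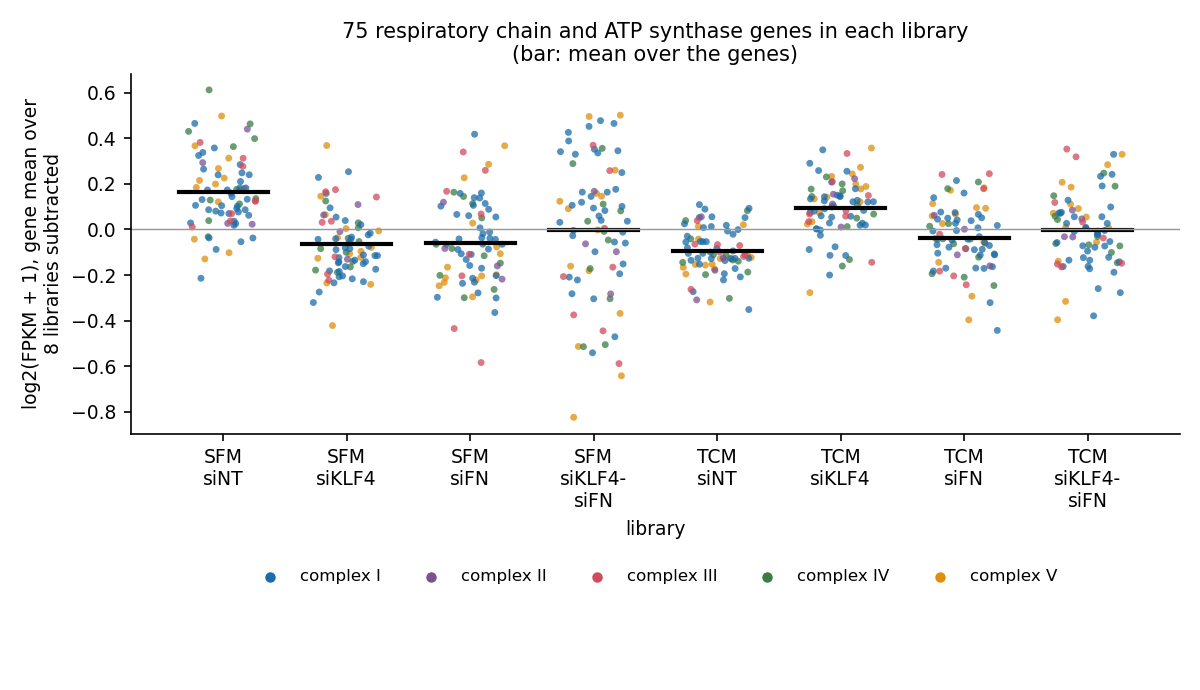
Gene-centred log2(FPKM + 1) of the 75 genes in each library, coloured by complex, with a bar at the mean over the genes. SFM siNT (mean 0.16) and TCM siKLF4 (0.10) stand above 0, TCM siNT (-0.10) stands below, and SFM siKLF4-siFN spreads widest, from -0.82 to 0.50, around a mean of 0.00.

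Set against each other without a test, 1 library each, TCM siNT stood below SFM siNT. The median of the 75 genes was -0.24 beside -0.01 over all genes, and 10 of 75 genes were lower by at least 0.5 (13.3%, beside 10.3% of all genes) and none higher (5.19% of all genes). Cox7b, a small subunit of cytochrome c oxidase, differed most at -0.91. With siKLF4 the same comparison had a median of 0.19 beside 0.08 over all genes, with 64 of 75 genes above 0, beside 64.4% of all genes. The median of the 75 genes became 0.08 with the length trend removed, 0.09 with the GC trend removed and 0.10 with upper quartile scaling. These settings shift all genes too, so these values are not to be set against the 0.08 over all genes. None of the 75 was past 0.5 in either direction (3.61% of all genes upward and 4.22% downward). With siFN the median was 0.01 beside 0.02, with 3 genes higher (12% of all genes) and 5 lower (10.9%). With siKLF4-siFN it was -0.07 beside -0.06, with 12 genes higher (16%, beside 19.6%) and 11 lower (14.7%, beside 17.2%).

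On the SFM matrix each siRNA stood below siNT, and these 3 pairs share the siNT library. SFM siKLF4 minus SFM siNT had a median of -0.21 beside -0.03 over all genes. None of the 75 was higher by 0.5 (2.23% of all genes) and 5 were lower (6.67%, beside 3.4%). With the length trend removed, which shifts all genes too, the median of the 75 was -0.10. SFM siFN minus SFM siNT had a median of -0.21 beside -0.03, with none higher (6.51%) and 9 lower (12%, beside 11.2%), Uqcrh the furthest at -0.90. SFM siKLF4-siFN minus SFM siNT had a median of -0.10 beside 0.02, with 1 higher (13.1%), namely Ndufv1 at 0.68, and 12 lower (16%, beside 19.2%), Cox7b the furthest at -1.12.

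On the TCM matrix each siRNA stood above siNT, again with a shared siNT library. TCM siKLF4 minus TCM siNT had a median of 0.19 beside 0.04, with 68 of 75 genes above 0, beside 56.8% of all genes. Of the 75, 1 was higher by 0.5 (Atp5j, 0.55, beside 6.81% of all genes) and none lower (2.3%). TCM siFN minus TCM siNT had a median of 0.06 beside -0.01, with 1 higher (Uqcrh, 0.50; 7.68%) and none lower (4.66%). TCM siKLF4-siFN minus TCM siNT had a median of 0.09 beside -0.01, with 2 higher (7.62%) and none lower (4.83%), and Uqcrh again led at 0.62. The residual spread between library means of the 75 genes was 0.11 (SD, 4 residual degrees of freedom). This is the spread of a single library mean around the additive model, so it also holds any interaction of the factors. A difference between a pair of libraries varies more. Pairs of single libraries cannot separate a condition from its library.

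Of the 6 genes with the widest ranges, all but Uqcrh had their highest or lowest value in SFM siKLF4-siFN. Atp5g3 had an FPKM of 97.7, 84.3, 72.4 and 47.0 on SFM with siNT, siKLF4, siFN and siKLF4-siFN, and of 81.6, 108, 94.8 and 106 on TCM in the same order. Its value in SFM siKLF4-siFN was the lowest of the 8. Cox7b had 20.8, 14.6, 14.8 and 9.05 on SFM and 10.6, 12.0, 13.4 and 13.7 on TCM, highest in SFM siNT and lowest in SFM siKLF4-siFN. Atp5k, which encodes the e subunit of the ATP synthase, had 11.6, 13.0, 8.28 and 5.93 on SFM and 8.59, 11.3, 11.3 and 10.4 on TCM.

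In the other direction, Ndufv1, the NADH-binding flavoprotein of complex I, had 8.90, 9.54, 11.3 and 14.8 on SFM and 11.2, 9.89, 9.62 and 9.45 on TCM. Atp5b had 150.3, 151, 153 and 197 on SFM and 166, 182, 158 and 165 on TCM. Both were highest in SFM siKLF4-siFN. The complex I assembly factor Ndufaf3 had 4.75, 3.53, 3.73 and 5.67 on SFM and 3.11, 4.29, 2.52 and 3.396 on TCM, and Atp5g1 had 3.27, 1.26, 2.90 and 3.28 on SFM and 2.07, 1.49, 1.47 and 1.30 on TCM. The 6 genes with the widest range on the log2(FPKM + 1) scale were Atp5g3 (1.18), Cox7b (1.12), Atp5k (1.01), Uqcrh (0.94), Atp5g1 (0.92) and Ndufaf3 (0.92). The 6 narrowest were Ndufaf1 (0.18), Ndufb6 (0.22), Ndufa6 (0.24), Ndufa10 (0.27), Sdhb (0.30) and Cox7a2l (0.30). The median range of the 75 genes was 0.54 beside 0.59 over all genes tested.

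SFM siKLF4-siFN was the lowest library for 18 of the 75 genes and the highest for 20, shares of 24% and 26.7% that do not exceed those of all genes tested (27.1% and 31.0%). The side a gene took went with its base composition. Over the 75 genes, Spearman's rho between the centred value in SFM siKLF4-siFN and the G and C content of the coding sequence was 0.53. The 25 genes with the lowest content (42.9% to 50.8%) averaged -0.24 there, and the 25 with the highest (55.4% to 65.2%) averaged 0.17. The opposite sign was seen in SFM siKLF4 (rho -0.43), TCM siFN (-0.52) and TCM siKLF4-siFN (-0.57), and rho in SFM siNT was 0.06. These are descriptions over 75 genes that share each library and its preparation. With 1 library per condition, such trends cannot be told apart from the conditions. Over 5430 other protein-coding genes rho was 0.48 in SFM siKLF4-siFN, -0.43 in SFM siKLF4, -0.42 in TCM siKLF4-siFN and -0.35 in TCM siFN, the same signs as in the chain. It was -0.22 in SFM siNT and 0.23 in TCM siKLF4, where the chain had 0.06 and 0.03. With each library's trend with transcript G and C content removed, TCM minus SFM with siFN was 0.83 for Uqcrh, 0.32 for Uqcrb and -0.55 for Ndufa7.

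**Figure D4:**
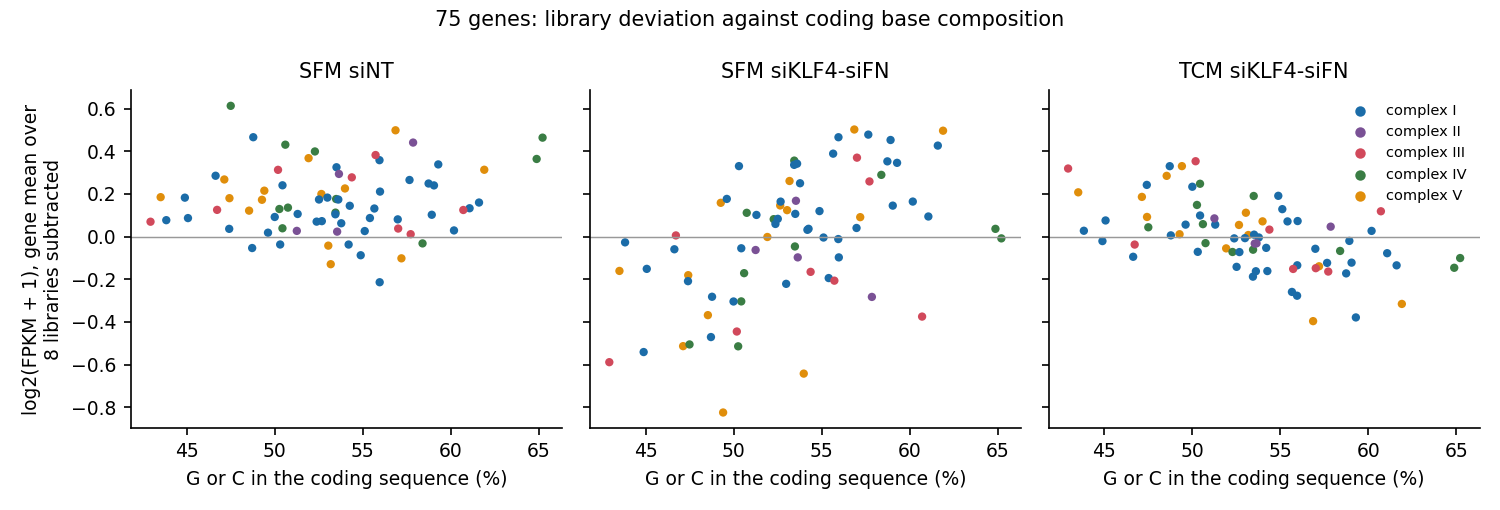
Gene-centred log2(FPKM + 1) against the percentage of G or C in the coding sequence for the 75 genes, in SFM siNT, SFM siKLF4-siFN and TCM siKLF4-siFN. Spearman's rho is 0.06, 0.53 and -0.57 in the 3 panels.

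Several genes of the chain have near-identical copies elsewhere in the genome, most of them processed pseudogenes, and the deposited table gives these copies high values. Among the 91 rows, 22 had at least 1 copy with 95% identity over 100 or more coding bases and a row of its own, in 36 pairs. In 5 of the 22 the copies held more reads than the gene. Gm10175, identical to the coding sequence of Atp5g2 over 438 bases, had a mean FPKM of 238, whereas Atp5g2 itself had 0.53. The copies took 153 RPM and the gene 5.03, so 96.8% lay on the copies (95.5% to 97.6% over the libraries). The share was 88.6% for Atp5o, a peripheral stalk subunit, 68.3% for Ndufa12, 64.5% for Atp5g1 and 58.3% for Atp5h.

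The share was 44.5% for Cox7c, 43.5% for Atp5l, 36.1% for Ndufab1, 33.4% for Ndufs5, 19.0% for Ndufs3, 15.9% for Cox5b and 12.8% for Uqcrb, and under 10% for the other 10. How reads that fit both places were assigned is not given in the sources used here, so the values of these genes are uncertain. The sequences of 3 such pairs show how little separates a gene from its copy. Each pair gives 120 aligned coding bases of the gene and its most abundant copy, chosen where they differ most, with the differing bases in capitals. The copies lie at chr1:170925309-170925644 (Gm2962), chr11:100361716-100362126 (Gm10039) and chr13:21501029-21501418 (Gm11273), all on the minus strand of GRCm38.
Uqcrb: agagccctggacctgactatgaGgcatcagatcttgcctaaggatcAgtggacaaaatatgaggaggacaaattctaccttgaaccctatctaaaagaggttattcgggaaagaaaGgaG
Gm2962: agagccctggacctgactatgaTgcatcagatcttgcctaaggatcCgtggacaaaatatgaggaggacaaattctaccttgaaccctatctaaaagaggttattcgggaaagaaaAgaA
Atp5g1: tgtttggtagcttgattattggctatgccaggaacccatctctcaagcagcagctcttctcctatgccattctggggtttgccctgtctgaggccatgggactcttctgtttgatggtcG
Gm10039: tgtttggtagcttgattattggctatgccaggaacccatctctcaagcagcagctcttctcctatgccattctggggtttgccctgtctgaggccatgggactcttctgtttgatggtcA
Cox5b: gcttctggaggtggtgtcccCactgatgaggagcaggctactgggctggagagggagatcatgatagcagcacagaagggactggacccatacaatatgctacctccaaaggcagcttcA
Gm11273: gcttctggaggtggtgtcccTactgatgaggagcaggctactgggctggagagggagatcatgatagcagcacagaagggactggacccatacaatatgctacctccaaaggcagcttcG
Uqcrb and Gm2962 differ at 4 of the 120 bases shown and at 6 of 333 aligned, Atp5g1 and Gm10039 at 1 of 408 aligned, and Cox5b and Gm11273 at 3 of 387 aligned. On the rescaled scale the TCM minus SFM difference of Uqcrb with siFN was 0.74 (limma, adjusted p = 0.0346), and with the reads of copies added to it 0.76 (limma, adjusted p = 0.0311).

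**Figure D5:**
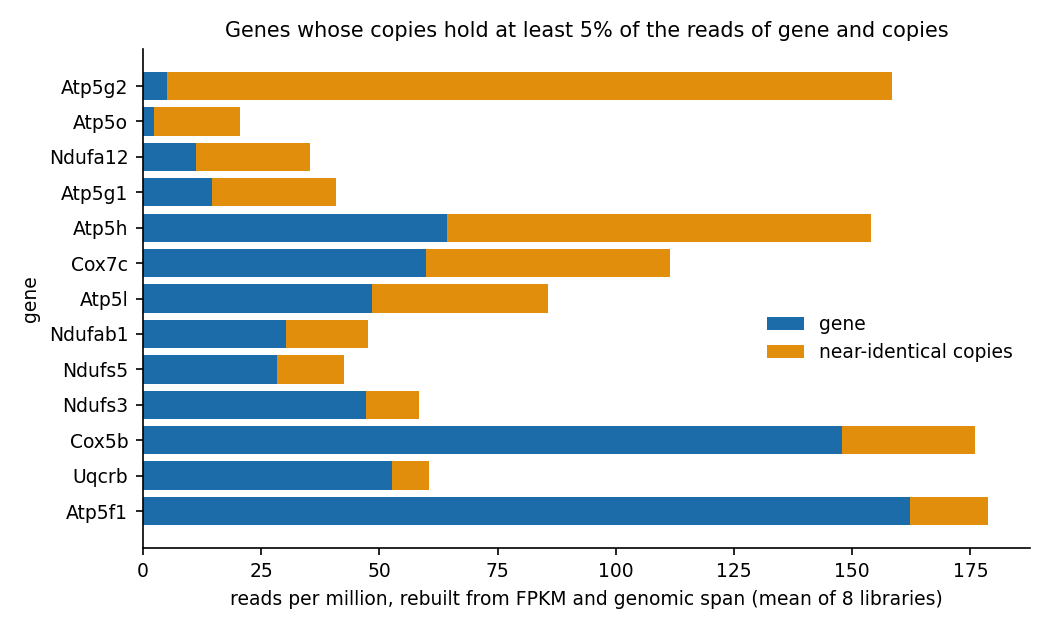
Abundance of gene and near-identical copies in RPM, rebuilt from FPKM and genomic span and averaged over the 8 libraries, for the 13 genes whose copies hold at least 5% of the total. Copies hold 96.8% for Atp5g2 and 58.3% for Atp5h.

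The counting rule and strand setting are not stated, and whether reads of overlapping genes were mixed was not tested. Of the 75 genes, 31 overlap the span of another row. For 15, that row had over its whole span more than 10% as many reads as the gene. Reads within the shared bases were not counted, and some overlaps are short, such as 9 bases of Ndufs1 and Eef1b2. Cox6c shares 5344 bases with Vps13b on the opposite strand, which took 112 RPM over its whole span beside 209 for Cox6c. Cox4i1 lies wholly inside the same-strand row Gm20388. Atp5j shares 701 bases with Gabpa, which encodes a transcription factor of respiratory genes and is read in the opposite direction.

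Promoters from RefSeq (GRCm38.p6, 250 bases before to 50 after each start) matched 64 of the 75 genes. Short cores of known regulators were searched on both strands, counting a gene if any of its promoters held the letters. The NRF1 core GCATGCG was found in 11 of 64 genes (17.2%), beside 8.71% of 4305 other genes tested here and 3.58% of 32851 promoters in all. The YY1 core AAGATGGC was found in 10 (15.6%, beside 7.11% and 2.75%), and the ETS core CCGGAAG in 17 (26.6%, beside 26.3% and 8.86%). The CCAAT letters were found in 28 (43.8%, beside 43.4% and 37.4%). The shares over all promoters count promoters and not genes. Counted that way, the 70 promoters of the chain held the NRF1 core in 15.7%, YY1 in 15.7%, ETS in 24.3% and CCAAT in 41.4%. Their median G and C content was 58.5%, beside 52.7% over all promoters, and its part in the matches was not tested. These are matches of letters and not binding sites.

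The proteins around the chain followed lists chosen by function, each read beside the called shares of all genes given above. Of 9 tested chain proteins outside the rule, 1 was called, the muscle isoform Cox6a2. Its FPKM on SFM was 0.79 with siNT, 0.65 with siKLF4, 4.34 with siFN and 5.28 with siKLF4-siFN, and on TCM 1.54, 0.97, 0.17 and 0.49 in the same order. The 2 SFM libraries with siFN stood above all others, and it passed the filter on low values only through them, so the call is no support for a difference. Its constitutive paralogue Cox6a1 had an FPKM of 25.8 to 38.7 and was not called. Cyc1, the cytochrome c1 of complex III, and Cycs, cytochrome c, were not called. Cycs had its lowest FPKM in SFM siKLF4-siFN, 14.998, beside 23.6 to 28.9 in the other libraries.

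Of 9 tested assembly factors outside the rule, Tmem126b, which acts in complex I assembly, was called for the interaction (0.89 ± 0.19, limma, adjusted p = 0.0478) and for TCM minus SFM with siFN (0.56 ± 0.14, limma, adjusted p = 0.0415). None of 15 citrate cycle and pyruvate genes and none of 6 carriers and porins was called in the interaction, in siFN on the SFM matrix or in TCM minus SFM with siFN. The nearest were Dld, a subunit shared by dehydrogenase complexes (0.69, limma, adjusted p = 0.0674, TCM minus SFM with siFN), and the ADP/ATP carrier Slc25a4 (0.69, limma, adjusted p = 0.0720). Of 9 tested regulators of mitochondrial gene expression, Myc (0.71) and the coactivator Pprc1 (0.50) rose with siFN on the SFM matrix, each with an adjusted p of 0.0456 in limma, and Gabpa rose by 0.69 with TCM against SFM in the siFN libraries (limma, adjusted p = 0.0499), where Pprc1 fell by 0.60.

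Lists of other functions were read in the same contrasts. All 15 tested mitosis genes fell with siFN on the SFM matrix, with a median of -1.86. The summed FPKM of all 22 listed mitosis genes ranged from 10.7 in SFM siKLF4-siFN to 99.0 in SFM siNT. On the TCM matrix it ranged from 27.9 in TCM siNT, which had no siFN, to 93.7. Of 20 genes of the amino acid and endoplasmic reticulum stress responses, 4 rose with siFN on the SFM matrix. Among 7 tested melanocyte markers, Tyr, which encodes tyrosinase, fell there by 1.01 ± 0.15 (limma, adjusted p = 0.0331). No gene of the table was called in that contrast when any 1 SFM library other than SFM siFN was left out, and none was called in the interaction or in TCM minus SFM with siFN without either SFM siKLF4-siFN or TCM siFN. The 75 chain genes had a median of -0.06 in that contrast, beside 0.01 over all genes tested. The part of the mitosis, stress and melanocyte marker differences in the values of the chain was not tested.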

How the data were processed

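The authors deposited a table of FPKM by gene and library. STAR 2.4.1d, Partek and build mm10 are named in the submitters' processing notes. The sources used here give no counting rule, annotation or strand setting. The table has no counts. From its low values, depth was estimated on genes with a single exon, and the deposited FPKM was found to use the genomic span. Depth of 11600000 to 23000000 reads leaves 61.6 reads or more for every gene of the 75 in every library. Intervals for counting error were not computed.

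Symbols were matched to GENCODE M21 (GRCm38) for 92.1% of the rows, 785 of them through RefSeq synonyms, and for 97.5% of the 6917 genes tested. The 6917 genes averaging 1 FPKM or more were tested as log2(FPKM + 1) with limma 3.58.1 in R 4.3.3 (variance trend, two-sided), in an additive model of medium, siKLF4 and siFN or with 1 interaction added. The added 1 shrinks the differences of low genes. The 3 or 4 residual degrees of freedom come from libraries of different conditions. The model was also run on simulated data with a planted interaction and independent noise. That simulation held no trends of whole libraries, so it does not bear on them. Copies were found with blastn 2.17.0.

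The genes, lists and tests were chosen with earlier results of these data known. Named are called genes (otherwise the 3 smallest p in each direction), the highest 3 per complex, the 6 widest and 6 narrowest ranges, isoforms and assembly factors, the rows nearest the limit and up to 4 genes per list. Other pseudocounts, filters, scalings and left-out libraries were tried, and the removal of the GC trend, rescaling to transcript length with and without copies added, the leaving out of genes with copies and siRNA as a block were added after the data were seen. Atp5g2, the genes shown with sequences, and Cycs, Atp5o and Vps13b were singled out after their values were seen. A gene that the naming rule picks is not reported here.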

Additional observations from a re-analysis of the deposited data

Results flagged for a closer look

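Uqcrh stood out because its difference between TCM and SFM differed between libraries with and without siFN, by 1.08 on the log2 scale (limma interaction, adjusted p = 0.0480). The difference was in the same direction in every alternative and with each library left out, from 0.86 without TCM siNT to 1.30 without TCM siKLF4. The adjusted p ranged from 0.0197 to 0.138 over the alternatives and from 0.0367 to 0.169 with a library left out.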

How the results depend on the processing

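The 7 tests that called none of the 75 genes (the 3 single terms, TCM minus SFM without siFN, siFN on the TCM matrix and the interactions with siKLF4) called none under any alternative run or with any library left out. The other 3 moved. For TCM minus SFM with siFN the count of 3 became 0 without the filter on low values, 5 at a mean FPKM of at least 5, 6 with the GC trend removed, 7 with upper quartile scaling or with the length trend removed, and 10 among protein-coding genes. After rescaling to transcript length, which tests 84 genes of the chain, it was 9, and 10 with rescaling and copies added together, Ndufaf2 among them in both. For siFN on the SFM matrix the count of 1 became 0 with a pseudocount of 0.1 and without the filter, 2 with the length or GC trend removed and 3 among protein-coding genes. For the medium by siFN interaction it became 0 with a pseudocount of 0.1 and without the filter. With 1 library left out, the counts ranged from 0 to 11, from 0 to 6 and from 0 to 7, each highest without SFM siFN. The calls over all genes moved too: the interaction called 496 genes as reported, 0 with a pseudocount of 0.1, 14 without the filter, 1036 among protein-coding genes, 1643 after rescaling and 2065 without SFM siFN. Of the medians between library pairs, SFM siKLF4-siFN minus SFM siNT moved from -0.10 to -0.22 at a mean FPKM of at least 5. The median of TCM siKLF4-siFN minus SFM siKLF4-siFN moved from -0.07 to 0.054 with the length trend removed. The other alternatives left each median within 0.11 of its reported value, the residual SD of a library mean given above. The cause was not tested, except that the filters and rescaling change which genes enter. With the 4 siRNAs as blocks, so that TCM and SFM were paired by siRNA, medium again called 0 of the 75 genes (limma; 3 of them and 345 of all genes at an unadjusted p under 0.05). Depth limits the low isoforms, with under 4 reads.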
